A study of Homo sapiens with 14 samples.

Results

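The collagen genes measured on these arrays numbered 41 of 22465 genes. A gene was taken as a collagen gene when a transcript cluster (the array's unit for a gene) was annotated with exactly 1 symbol made of COL, a number, A and a number, and the brightest of its clusters over the 14 arrays stood for it. The symbols covered 48 clusters, and 2 genes (COL11A2 and COL27A1) had more than 1. By collagen class, 10 genes were fibrillar, 6 belonged to basement membranes, 3 to short-chain networks and 22 to other classes. COL3A1 and COL26A1 shared their cluster with a second symbol and were left out, as the rule required.

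All 14 arrays held RNA of U87MG, a human glioblastoma cell line, so each group is a state of 1 line. WJT (n = 3) were gliospheres treated for 7 days with conditioned medium (CM) of Wharton's jelly mesenchymal stem cells (MSCs), and BMT (n = 3) were gliospheres given CM of bone marrow MSCs over the same time. Gliospheres (n = 3) were untreated spheres grown from the sorted CD133+ fraction, and passage 13 spheres were those treated. Negative spheres (n = 2) came from the sorted negative fraction, which formed no spheres according to the methods although the labels call them spheroids, and the cell line (n = 3) was untreated cultured U87MG. The sorted groups were kept in a sphere medium with N2, B27, EGF, bFGF and LIF, in which the MSCs had also conditioned the CM. By the methods, U87MG itself was expanded as a monolayer in medium with fetal bovine serum. Medium, attachment and sorting thus differ together in comparisons with the cell line, and their parts were not tested. By the methods, CM was given with a small part of fresh sphere medium, and untreated gliospheres grew in normal sphere medium. Use of the medium by the MSCs and the products they released therefore differ together in WJT and BMT against gliospheres. Sphere arrays are numbered as biological replicates, which is not said of the cell line, and no label ties a treated array to an MSC donor. P-values therefore measure the spread between these arrays, whose small number limits the precision.

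Collagens are secreted proteins whose chains wind into triple helices. Fibrillar collagens build the cables of the extracellular matrix, collagens of basement membranes and short-chain networks form sheets, and others sit on fibril surfaces, form beaded filaments or anchor epithelia. Normal brain tissue holds little fibrillar collagen outside its vessels and meninges, and U87MG is known as a line with a mesenchymal character. The comparisons ask how CM of each MSC type altered the gliospheres and how untreated gliospheres differed from the other U87MG cells.

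The values are log2 signals as deposited, with array medians between 3.58 and 3.92. PROM1, which encodes CD133, lay between 3.36 and 3.65 in every array and was near the array medians also in the groups sorted as CD133+. The study assessed CD133 as protein, by flow cytometry and immunostaining, and these RNA signals do not measure protein. SOX2 lay between 3.41 and 3.97. Of the remaining glioma stem cell markers examined, MSI1 lay between 3.55 and 3.83 and NES, which was brighter, between 4.13 and 4.84. Of 10 mesenchymal stromal and fibroblast markers, THY1 stayed between 3.11 and 3.61, while the summed log2 signal of the list was 78.2 to 80.5 in WJT, 74.3 to 75.9 in BMT, 69.4 to 78.3 in gliospheres, 69.6 to 71.3 in negative spheres and 64.7 to 78.8 in the cell line. This sum moved with several collagen genes, and its part in their differences was not tested. The members of the list did not move together. LRRC15 was at 11.66, 11.87 and 11.13 in WJT and 8.47, 7.87 and 5.40 in gliospheres. PDGFRA overlapped, at 6.08, 6.47 and 6.73 in WJT and 6.43, 6.33 and 9.02 in gliospheres. Gliospheres replicate 3 and cell line replicate 1 stood apart from their groups for several collagen genes, and cell line replicate 3 for some. Values without the arrays that change a result are given with the comparisons. Endothelial markers summed to 10.4 to 11.2 and stayed near the array medians in all arrays. In such bulk RNA, fewer cells of a type and less RNA per cell cannot be told apart.

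Only some of the family gave a signal well above the array medians. 10 members had a mean of at least 5 over the arrays, 9 lay between 4 and 5, and 22 had a mean under 4. In any single array, 11 members passed 5. The bright members were COL1A1, COL1A2 and COL5A2 among the fibrillar collagens, COL8A1 and COL10A1 among the network collagens, and COL6A1, COL6A2, COL6A3, COL12A1 and COL15A1 among the others. COL7A1 joined them above 5 in some arrays. The 6 basement membrane genes had no array above 4.65.

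In WJT, the collagen genes with the clearest differences from gliospheres were COL10A1, a short-chain collagen known from hypertrophic cartilage, and COL15A1, a multiplexin of basement membrane zones. COL12A1 (a collagen on the surface of collagen I fibrils) and COL6A3 (a chain of the beaded collagen VI filament) differed over 2-fold. So did COL10A1, COL1A1 (the major chain of collagen I) and COL1A2 (its second chain), the last with an interval that spanned 0. COL15A1 differed by slightly under 2-fold. No collagen gene passed an adjusted p of 0.05 in WJT against gliospheres, where 0% of all genes did. At the study's looser criterion, a 2-fold or larger difference and an unadjusted p no greater than 0.05, 4 members were higher and 0 lower in WJT, beside 0.592% and 0.352% of all genes. These were COL10A1, COL12A1, COL6A3 and COL1A1. With no demand on the fold, 9 members were higher and 1 (COL4A6) lower at that p, beside 3.29% and 4.33% of genes.

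COL10A1 had log2 signals of 12.42, 10.55 and 8.08 in WJT, 5.51, 7.93 and 7.65 in BMT, 6.78, 5.27 and 4.07 in gliospheres, 4.02 and 3.76 in negative spheres, and 3.79, 4.19 and 4.19 in the cell line. Every WJT array lay above every other array, and the controls lay near the array medians. The log2 difference of WJT from gliospheres was 4.98 ± 0.97 (SE), a 31.5-fold difference with a 95% interval from 2.86 to 7.09 and an adjusted p of 0.186 by limma. Only 1 of the 22465 genes had a larger positive estimate. The signal also differed widely within a group, and WJT replicate 1 exceeded the mean of the other WJT arrays by 3.11.

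The log2 signal of COL15A1 was 6.97, 6.93 and 6.33 in WJT, 5.52, 5.73 and 5.73 in BMT, 5.63, 5.73 and 5.97 in gliospheres, 4.90 and 4.89 in negative spheres, and 4.98, 4.89 and 4.99 in the cell line. WJT stood above all other arrays, BMT and gliospheres overlapped, and both groups stood above all 5 control arrays. The WJT minus gliospheres difference was 0.97 ± 0.15 (SE; 95% interval 0.64 to 1.30; 1.96-fold; limma adjusted p = 0.114). Without WJT replicate 3 it was 1.17 and passed (adjusted p = 0.0215), and under array weights it was 0.98 (adjusted p = 0.0382). WJT replicate 3 had the lowest COL15A1 signal of its group, so leaving it out enlarges the difference by construction and is no independent support.

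**Figure D1:**
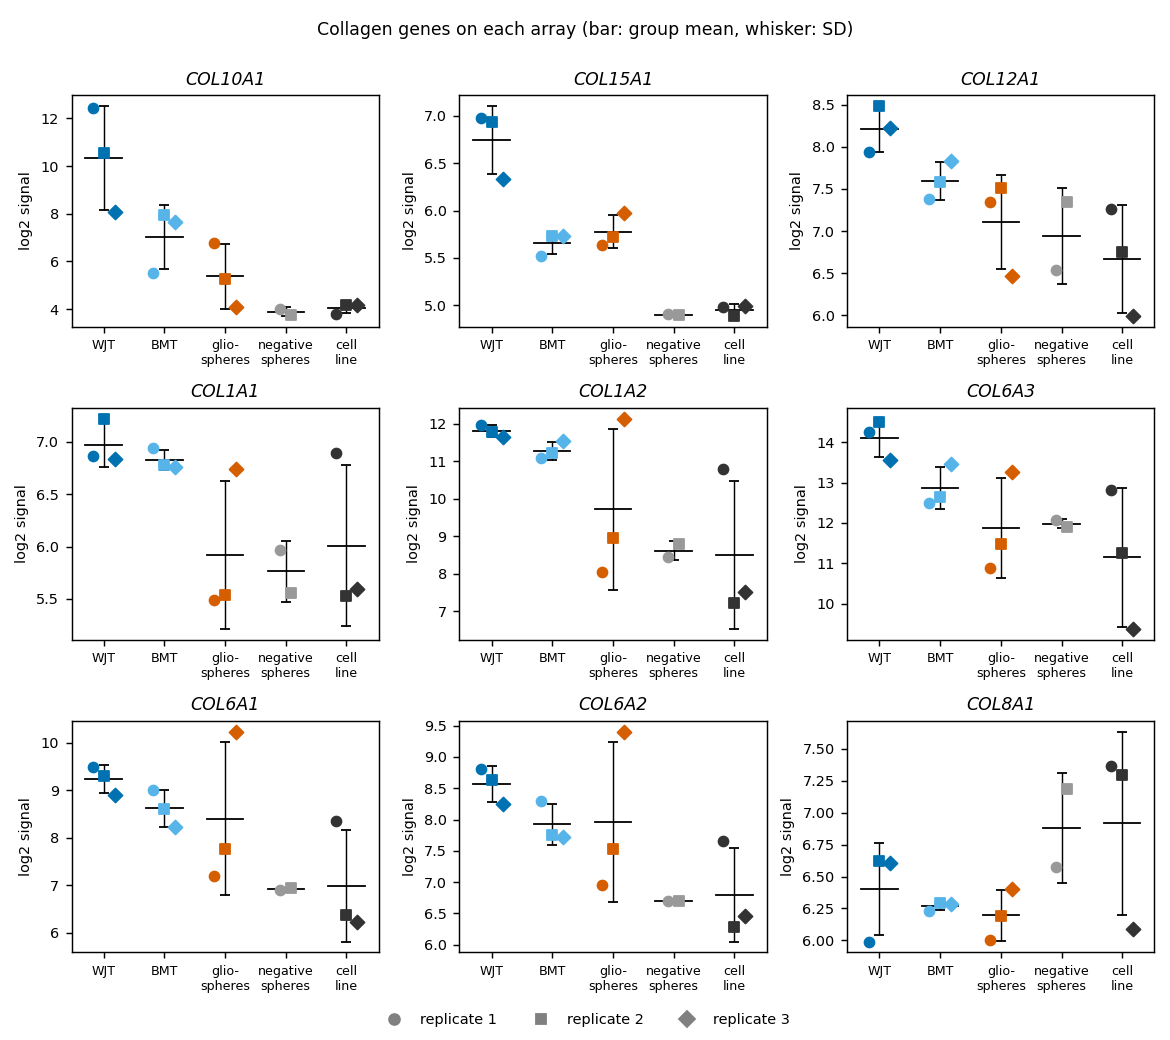
Log2 signal of 9 collagen genes by array (y axis, log2 units), with the groups on the x axis from WJT to the cell line, 1 point per array, marker shape for the replicate number, a bar at the group mean and a whisker of 1 SD. COL10A1 and COL15A1 in WJT sit above all other arrays, while gliospheres replicate 3 sits far above its own group for COL1A2, at 12.13.

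Promoter windows of COL10A1, COL15A1, COL12A1, COL6A2 and COL6A3 are shown to give the sequence context of their starts. The table of RefSeq windows used here (GRCh38.p14) matched 30 of the 41 members, with 42 windows in all, and COL1A1, COL1A2, COL5A2, COL6A1 and COL8A1 were not among them. The 250 bases before the start were searched on both strands. The letters searched were TATAAA for a TATA box, the CCAAT box itself, GGGCGG for a GC box, TGANTCA for an AP-1 site, TGTGGT for a RUNX site and ACGTG for the core of a hypoxia response element. Capitals mark the matches, and no matches overlapped in the windows shown. COL10A1 has 3 windows in the table, of which the 2 with matches are printed. The first window printed is chr6:116126133-116126382 (minus strand) and the second chr6:116158773-116159022 (minus strand). COL15A1 is at chr9:98943657-98943906 (plus strand), COL12A1 at chr6:75206054-75206303 (minus strand), COL6A2 at chr21:46097862-46098111 (plus strand) and COL6A3 at chr2:237414165-237414414 (minus strand).
COL10A1, first window: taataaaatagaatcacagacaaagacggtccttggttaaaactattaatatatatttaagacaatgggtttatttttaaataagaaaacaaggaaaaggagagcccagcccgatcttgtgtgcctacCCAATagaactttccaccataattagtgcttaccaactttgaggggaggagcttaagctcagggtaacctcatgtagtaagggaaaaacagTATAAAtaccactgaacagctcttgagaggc
COL10A1, second window: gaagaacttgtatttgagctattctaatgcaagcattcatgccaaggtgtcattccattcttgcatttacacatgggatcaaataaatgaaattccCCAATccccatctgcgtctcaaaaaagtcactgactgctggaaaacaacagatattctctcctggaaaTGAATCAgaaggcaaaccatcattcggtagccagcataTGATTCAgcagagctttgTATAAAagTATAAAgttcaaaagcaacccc
COL15A1: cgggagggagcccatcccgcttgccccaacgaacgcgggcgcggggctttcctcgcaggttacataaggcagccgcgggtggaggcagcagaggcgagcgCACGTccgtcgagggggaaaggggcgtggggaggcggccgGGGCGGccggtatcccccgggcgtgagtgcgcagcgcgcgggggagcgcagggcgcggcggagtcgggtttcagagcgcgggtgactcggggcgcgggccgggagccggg
COL12A1: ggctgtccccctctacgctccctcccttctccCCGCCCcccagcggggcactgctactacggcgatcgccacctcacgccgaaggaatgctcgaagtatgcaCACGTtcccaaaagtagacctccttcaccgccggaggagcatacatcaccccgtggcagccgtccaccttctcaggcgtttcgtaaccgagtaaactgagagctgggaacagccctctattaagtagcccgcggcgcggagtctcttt
COL6A2: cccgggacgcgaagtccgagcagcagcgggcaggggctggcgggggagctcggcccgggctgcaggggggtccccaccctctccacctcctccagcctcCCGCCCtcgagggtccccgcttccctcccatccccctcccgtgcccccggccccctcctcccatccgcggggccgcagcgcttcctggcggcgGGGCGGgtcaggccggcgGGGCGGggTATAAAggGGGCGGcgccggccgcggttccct
COL6A3: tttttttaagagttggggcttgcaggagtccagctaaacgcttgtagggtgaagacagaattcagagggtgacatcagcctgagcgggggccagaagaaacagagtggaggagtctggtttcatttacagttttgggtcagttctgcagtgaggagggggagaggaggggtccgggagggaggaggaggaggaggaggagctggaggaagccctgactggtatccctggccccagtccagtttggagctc

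The COL10A1 windows printed held 37.6% and 39.2% G and C, and the one not printed (chr6:116217145-116217394, minus strand) held 32.4% and no match to any of the letters searched. The first held a TATAAA 31 to 26 bases before the start, a spacing usual for a TATA box, and the second held 2, at 30 to 25 and 22 to 17 bases, and 2 TGANTCA matches at 86 to 80 and 48 to 42 bases. The COL15A1 window held 76.8% G and C, with 38 CpG dinucleotides, no TATAAA and 1 GGGCGG. The COL12A1 window held 61.2% G and C, with a GGGCGG and an ACGTG on the reverse strand. COL6A2 and COL6A3 encode chains of the same protein, yet the COL6A2 window held 79.6% G and C with a TATAAA and 4 GGGCGG, while the COL6A3 window held 56% and no match. Among the 35116 windows of all genes, the TATA box letters were held by 10.7%, the CCAAT box by 32.0%, the GC box by 42.6%, the AP-1 letters by 6.57%, the RUNX letters by 11% and the hypoxia core by 18.5%. Among the 42 collagen windows the shares were 16.7%, 26.2%, 57.1%, 2.38%, 2.38% and 16.7% in that order. A match is a run of letters and was not tested as a binding site.

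Collagen I and its companions were next by class. COL1A1 had log2 signals of 6.86, 7.22 and 6.84 in WJT, 6.94, 6.78 and 6.76 in BMT, 5.49, 5.53 and 6.74 in gliospheres, 5.97 and 5.56 in negative spheres, and 6.89, 5.53 and 5.60 in the cell line. Both treated groups lay above all 3 gliosphere arrays. The difference from gliospheres was 1.05 ± 0.37 in WJT (SE; 95% interval 0.24 to 1.87; limma adjusted p = 0.629) and 0.91 ± 0.37 in BMT (95% interval 0.09 to 1.72; limma adjusted p = 0.545).

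COL1A2, the second chain of collagen I, had 11.97, 11.78 and 11.66 in WJT, 11.07, 11.21 and 11.53 in BMT, 8.05, 8.95 and 12.13 in gliospheres, 8.44 and 8.79 in negative spheres, and 10.78, 7.20 and 7.52 in the cell line. The 6 treated arrays were close together, and gliospheres replicate 3 was above all of them. The estimate for WJT over gliospheres was 4.26-fold (log2 difference 2.09, 95% interval -0.05 to 4.24, limma adjusted p = 0.848), and for BMT 2.95-fold (1.56, -0.59 to 3.71, limma adjusted p = 0.708). Of the collagen V and XI chains, which set the diameter of fibrils, COL5A2 had the same pattern of a high gliospheres replicate 3 (7.46, against 5.42 and 5.84 in the other gliosphere arrays). COL5A1 and COL11A1 were dim, with WJT minus gliospheres differences of 0.48 and 0.45 and limma adjusted p-values of 0.635 and 0.393. In all, 9 of 10 fibrillar genes had a difference above 0 in WJT, with a median of 0.26.

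Among the beaded filament collagens, the chains COL6A1, COL6A2 and COL6A3 were bright and COL6A5 and COL6A6 dim. COL6A3 had 14.25, 14.49 and 13.56 in WJT, 12.50, 12.64 and 13.46 in BMT, 10.88, 11.49 and 13.25 in gliospheres, 12.07 and 11.90 in negative spheres, and 12.81, 11.25 and 9.37 in the cell line. WJT lay above every other array. The difference from gliospheres was 2.23 ± 0.78 in WJT (SE; 95% interval 0.53 to 3.93; 4.68-fold; limma adjusted p = 0.62) and 0.99 in BMT (95% interval -0.71 to 2.69).

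COL6A1 had 9.48, 9.29 and 8.91 in WJT, 9.0, 8.61 and 8.23 in BMT, 7.19, 7.76 and 10.23 in gliospheres, 6.90 and 6.94 in negative spheres, and 8.34, 6.37 and 6.23 in the cell line. COL6A2, the chain encoded beside it, had 8.81, 8.63 and 8.25 in WJT, 8.30, 7.75 and 7.71 in BMT, 6.95, 7.53 and 9.40 in gliospheres, 6.70 and 6.69 in negative spheres, and 7.66, 6.28 and 6.45 in the cell line. For both genes, gliospheres replicate 3 was the highest of the 14 arrays and the other gliosphere arrays were below all treated arrays. The WJT minus gliospheres differences were 0.83 for COL6A1 (95% interval -0.67 to 2.33) and 0.60 for COL6A2 (-0.53 to 1.74).

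COL12A1 had 7.94, 8.48 and 8.22 in WJT, 7.37, 7.58 and 7.83 in BMT, 7.35, 7.51 and 6.47 in gliospheres, 6.54 and 7.34 in negative spheres, and 7.26, 6.76 and 5.99 in the cell line. WJT lay above all other arrays, and BMT overlapped with gliospheres. The WJT minus gliospheres difference was 1.10 ± 0.35 (SE; 95% interval 0.34 to 1.86; 2.15-fold; limma adjusted p = 0.551). COL7A1, the collagen of anchoring fibrils in skin, averaged 5.42 ± 0.29 in WJT, 5.09 ± 0.16 in BMT and 4.75 ± 0.21 in gliospheres (SD, n = 3 each), with a WJT minus gliospheres difference of 0.67 (95% interval 0.33 to 1.01, limma adjusted p = 0.287). COL16A1, a further fibril-surface collagen, was dim and gave 0.29 (limma adjusted p = 0.382).

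Network and basement membrane collagens showed little besides COL10A1. COL8A1, a short-chain collagen of vessel walls and of the cornea, averaged 6.40 ± 0.36 in WJT, 6.27 ± 0.04 in BMT and 6.20 ± 0.20 in gliospheres (SD, n = 3 each), and the groups overlapped. The classical basement membrane chains COL4A1 and COL4A2 stayed between 3.38 and 3.62 and between 3.72 and 3.95 over all arrays. COL4A5 lay between 3.78 and 4.65. None of the 6 basement membrane genes differed by more than 0.20 on the log2 scale between either treated group and gliospheres. The 250-base windows before the COL4A1 and COL4A2 starts, which are read in opposite directions from a common region, overlapped by 126 bases.

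Over all 41 members, 36 had a WJT minus gliospheres difference above 0, against 50.3% of all genes, and the median was 0.10, against 0.00 over all genes. WJT and gliosphere arrays did not overlap for 17 members that were higher in WJT and 1 that was lower, beside 9.12% and 8.65% of all genes. This was counted on the deposited values, and some of the 17 were dim members with small gaps. For COL9A3 the lowest WJT array was at 3.4554 and the highest gliosphere array at 3.4546. Quantile normalization and median centring also gave 36 members above 0, with 60.7% and 55.4% of all genes. The sizes differed with brightness. All 10 members with a mean of at least 5 had a positive WJT difference, with a median of 1.01, against -0.06 over the 9211 genes of that brightness. That mean includes the treated arrays, so a rise in a treated group can itself place a member in this set. COL10A1 averaged 10.35 in WJT, 5.37 in gliospheres and 3.99 in the control group. Of the 22 members with a mean under 4, 18 had a difference above 0, and all 22 lay between -0.19 and 0.11. Among all genes that dim, 59.0% were above 0.

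In BMT against gliospheres, no member passed an adjusted p of 0.05 (0.0134% of all genes did) and none met the looser criterion in either direction, beside 0.383% of genes higher and 0.458% lower. At an unadjusted p no greater than 0.05, 4 members were higher (COL11A1, COL16A1, COL1A1 and COL7A1) and 0 lower, beside 4.34% and 4.71% of genes. COL10A1 was 3.15-fold higher in the estimate (log2 difference 1.65, 95% interval -0.46 to 3.77, limma adjusted p = 0.683), and COL15A1 had a difference of -0.12 (95% interval -0.45 to 0.21). In all, 34 members had a difference above 0, against 54.9% of genes, with a median of 0.11, and 36 and 33 did after quantile normalization and median centring, beside 56.5% and 45.4% of genes. Of the 10 bright members, 7 were above 0 in the deposited values and after median centring, and 10 after quantile normalization. The arrays did not overlap for 17 members higher and 1 lower in BMT, beside 12.4% and 7.82% of genes. Most of those 17 had a mean under 4, and only COL1A1 among them was bright. Low signals were higher in BMT as a whole, with 10th percentiles of 3.02 to 3.08, against 2.97 to 3.00 in gliospheres. Overlap was counted on the deposited values, so an offset of whole arrays may enter this count. Both treatments were set against the same 3 gliosphere arrays, so their differences share those arrays.

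**Figure D2:**
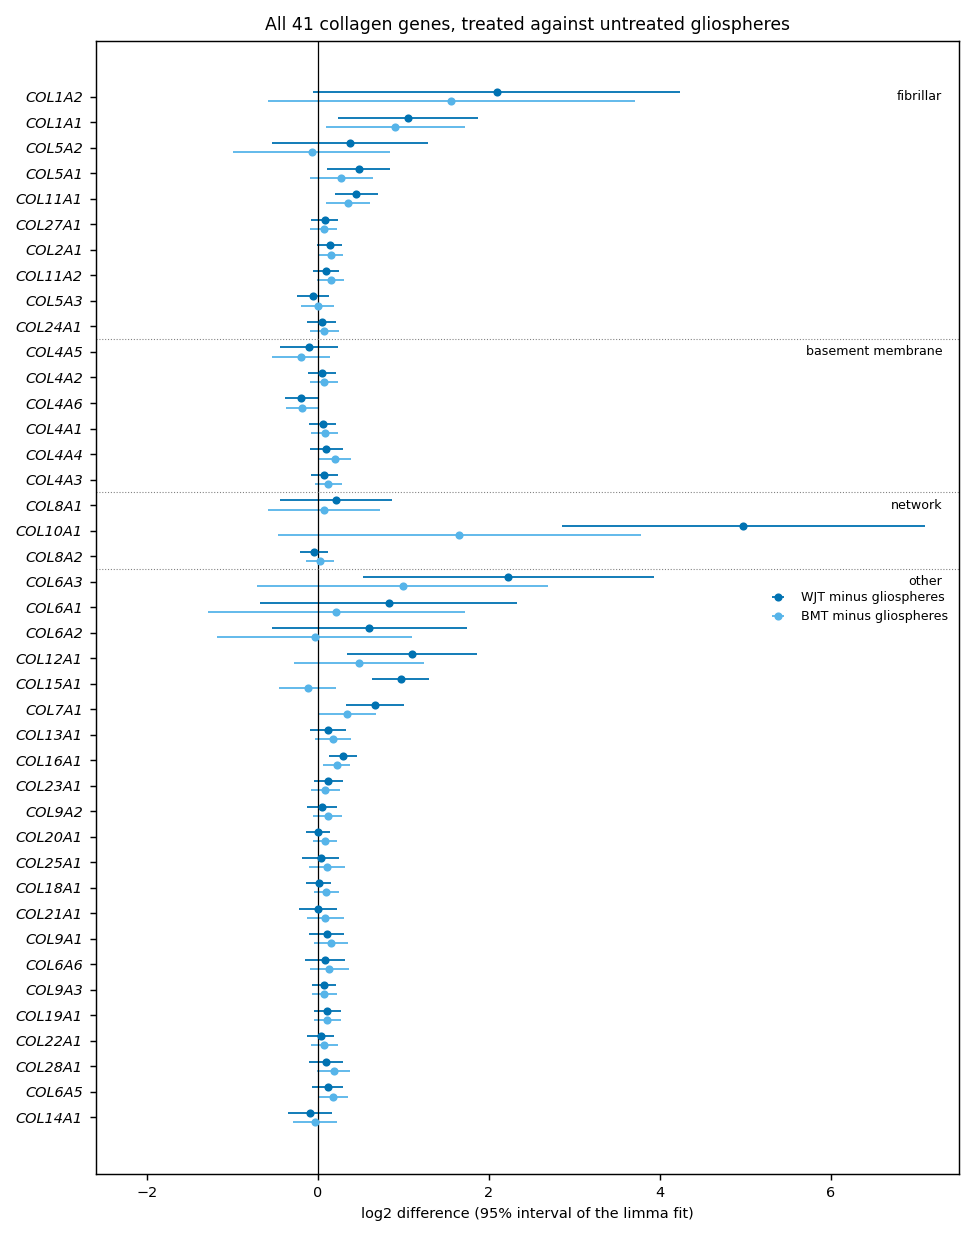
Log2 difference from gliospheres (x axis) for each of the 41 collagen genes (y axis, grouped by class), with WJT above BMT and 95% intervals from limma as lines. COL10A1 in WJT, at 4.98, lies farthest to the right, and the dim members lie near 0 in both treatments.

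WJT and BMT, compared directly, differed at an unadjusted p no greater than 0.05 for COL15A1 and COL10A1 alone among the members, both higher in WJT, beside 1.36% of genes higher and 1.17% lower. No member passed an adjusted p of 0.05 (0% of all genes did). Both met the looser criterion, which 0.089% of genes met higher in WJT and 0% lower. COL15A1 had a WJT minus BMT difference of 1.09 ± 0.15 (SE; 95% interval 0.75 to 1.42; 2.12-fold; limma adjusted p = 0.697), and no other gene had a smaller p in this comparison. Without WJT replicate 3 the difference was 1.29 and passed (adjusted p = 0.0105). That array was the lowest of WJT for COL15A1, so its omission enlarges the difference by construction and is no independent support. Over 16 alternatives the COL15A1 difference ranged from 0.97 to 1.29. COL10A1 had a difference of 3.32 ± 0.97 (SE; 95% interval 1.20 to 5.44; 9.99-fold; limma adjusted p = 1.00), the largest estimate among all genes.

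The WJT and BMT arrays did not overlap for 6 members higher in WJT (COL10A1, COL12A1, COL15A1, COL1A2, COL5A2 and COL6A3) and 4 lower (COL13A1, COL14A1, COL21A1 and COL28A1), beside 6.66% and 9.66% of genes. All 10 bright members had a WJT minus BMT difference above 0, with a median of 0.62, against 0.02 over genes of that brightness. Here too the mean that defines bright members includes the WJT arrays. The bright members kept these directions under quantile normalization and median centring, which the dim ones did not. Of the 22 members with a mean under 4, 0 were above 0 in the deposited values (28.7% of genes in that range), 11 after quantile normalization and 12 after median centring. Over all members 17 were above 0, beside 42.8% of genes, and 29 and 31 under the other scalings, beside 55.4% and 62.7% of genes. For COL1A1 the difference was 0.15 (95% interval -0.67 to 0.96), and the groups overlapped.

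In untreated gliospheres against the control group of negative spheres and cell line, COL15A1 rose. It averaged 5.78 ± 0.17 in gliospheres (SD, n = 3) and 4.93 ± 0.05 in the control group (SD, n = 5), a difference of 0.85 ± 0.14 (SE; 95% interval 0.55 to 1.14; 1.80-fold; limma adjusted p = 0.0197). It was the 1 member of 41 that passed, beside 1.01% of all genes. The call was lost without gliospheres replicate 2 (adjusted p = 0.0733), gliospheres replicate 3 (0.072) or negative spheres replicate 1 (0.0521), with differences of 0.87, 0.75 and 0.84. Against each control alone, COL15A1 differed by 0.88 from negative spheres (95% interval 0.49 to 1.27, limma adjusted p = 0.109) and by 0.82 from the cell line (0.48 to 1.17, limma adjusted p = 0.064). With the replicate number as a block, the cell line difference had an adjusted p of 0.126, and 0.28% of all genes were called in that comparison, where 0.539% were without the block.

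At the looser criterion, COL6A1 and COL6A2 exceeded the control group in gliospheres and no member was lower, beside 1.36% and 0.837% of genes. COL6A1 averaged 8.40 ± 1.61 in gliospheres (SD, n = 3) and 6.96 ± 0.83 in the control group (SD, n = 5), with a difference of 1.44 (95% interval 0.10 to 2.78, limma adjusted p = 0.422). COL6A2 averaged 7.96 ± 1.28 in gliospheres and 6.76 ± 0.53 in the control group, with a difference of 1.21 (95% interval 0.19 to 2.22, limma adjusted p = 0.359). Without gliospheres replicate 3 these differences were 0.52 and 0.48.

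Signals on the other side of 0 were smaller. COL8A1 averaged 6.20 ± 0.20 in gliospheres (SD, n = 3) and 6.90 ± 0.55 in the control group (SD, n = 5), a difference of -0.70 (95% interval -1.29 to -0.12, limma adjusted p = 0.35). COL13A1, a transmembrane collagen, had 4.42, 4.50 and 4.32 in gliospheres, 4.89 and 4.80 in negative spheres, and 4.82, 4.57 and 4.56 in the cell line, with a difference from the control group of -0.31 (limma adjusted p = 0.166). Gliospheres did not overlap with the control group for COL15A1, which was higher, nor for COL11A1 and COL13A1, which were lower, beside 3.89% and 4.59% of genes. With no demand on the fold, 3 members were higher (COL15A1, COL6A1 and COL6A2) and 3 lower (COL8A1, COL11A1 and COL13A1) at an unadjusted p no greater than 0.05, beside 8.29% and 6.28% of genes. Of the 41 members, 15 had a difference above 0, beside 39.5% of genes, but 25 after quantile normalization and 29 after median centring, beside 52.7% and 62.3% of genes. For COL10A1, 2 of the 3 gliosphere arrays lay above every control array, and the difference was 1.39 (limma adjusted p = 0.608).

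**Figure D3:**
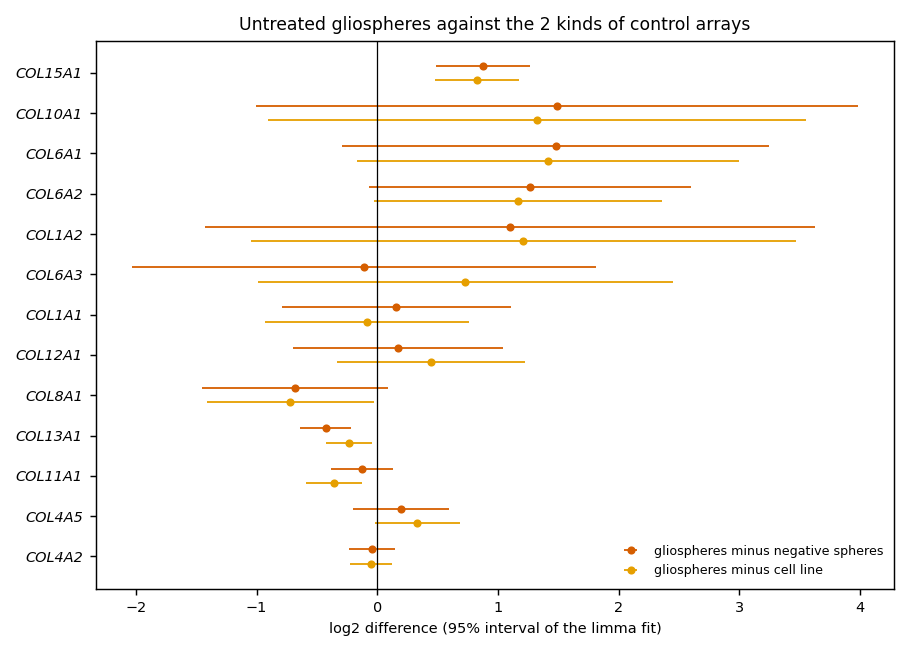
Log2 difference (x axis) of gliospheres from negative spheres and from the cell line for 13 collagen genes (y axis), with 95% intervals from limma as lines. COL15A1 differs by 0.88 and 0.82 with narrow intervals, whereas the intervals of COL1A2, COL6A1 and COL6A3 span 0.

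No member passed an adjusted p of 0.05 in gliospheres against negative spheres (0.272% of genes did), in gliospheres against the cell line (0.539%) or in negative spheres against the cell line (0%). None met the looser criterion there either, which 1.43% of genes met higher and 0.993% lower in gliospheres against negative spheres, 1.42% and 0.953% in gliospheres against the cell line, and 0.156% and 0.596% in negative spheres against the cell line. With no demand on the fold, gliospheres had COL15A1 higher and COL13A1 lower than negative spheres at an unadjusted p no greater than 0.05, beside 5.3% and 5% of genes. Against the cell line, COL15A1 and COL4A6 were higher, and COL8A1, COL11A1 and COL13A1 lower, beside 7.77% and 6.25% of genes. No member reached that p between negative spheres and cell line, beside 2.72% and 2.51% of genes. Gliospheres did not overlap with negative spheres for 4 members higher and 9 lower (12.2% and 14.5% of genes), nor with the cell line for 3 higher and 4 lower (6.28% and 9.87%), and the controls did not overlap with each other for 1 and 2 (6.56% and 8.2%). Differences above 0 were found for 13, 13 and 20 members in these comparisons, beside 45%, 39.4% and 45.6% of genes, and for 16, 32 and 34 after quantile normalization, so these directions turned with the scaling in the comparisons with the cell line. COL15A1 in negative spheres and cell line differed by -0.05 (95% interval -0.44 to 0.34).

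Gliospheres and the cell line held arrays that stood apart from their groups, mostly for fibrillar and beaded filament genes. Gliospheres replicate 3 exceeded the mean of the other gliosphere arrays by more than 1 on the log2 scale for 6 members, by 3.63 for COL1A2, 2.75 for COL6A1, 2.16 for COL6A2, 2.07 for COL6A3, 1.83 for COL5A2 and 1.23 for COL1A1, and was 1.96 below them for COL10A1. Of all genes, 3.57% and 3.85% were as far above or below in this array. Cell line replicate 1 exceeded its group by more than 1 for 5 members, by 3.42 for COL1A2, 2.50 for COL6A3, 2.04 for COL6A1, 1.33 for COL1A1 and 1.29 for COL6A2, beside 4.47% of genes. On the low side, gliospheres replicate 1 was more than 1 below the rest of its group for 5 members (COL1A2, COL5A2, COL6A1, COL6A2 and COL6A3, at -2.50 to -1.23), beside 1.78% of genes, and 2.11 above it for COL10A1. Cell line replicate 3 was more than 1 below its group for 5 members (-2.66 for COL6A3, -1.48 for COL1A2, -1.24 for COL8A1, -1.12 for COL6A1 and -1.02 for COL12A1), beside 5.67% of genes, and it had the highest median of the 14 arrays, 3.92. A high array also puts the others below the mean they are set against. For the 5 low genes of gliospheres replicate 1, that array lay nearer to replicate 2 than to replicate 3. Cell line replicates 2 and 3 were close for COL1A2 (7.20 and 7.52) and COL6A1 (6.37 and 6.23). The mesenchymal marker sum was also high in the arrays with high collagen I signals, at 78.3 in gliospheres replicate 3 against 69.4 and 70.8 in the other gliosphere arrays, and at 78.8 in cell line replicate 1 against 68.0 and 64.7. PDGFRB, a mesenchymal receptor, was at 10.50 in gliospheres replicate 3, against 5.79 and 6.60. LRRC15 went the other way there, at 5.40 against 8.47 and 7.87, as COL10A1 did. Of the same markers, NT5E was also lower there, at 16.94 against 18.27 and 18.29, and the dim THY1 was at 3.11 against 3.35 and 3.26.

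**Figure D4:**
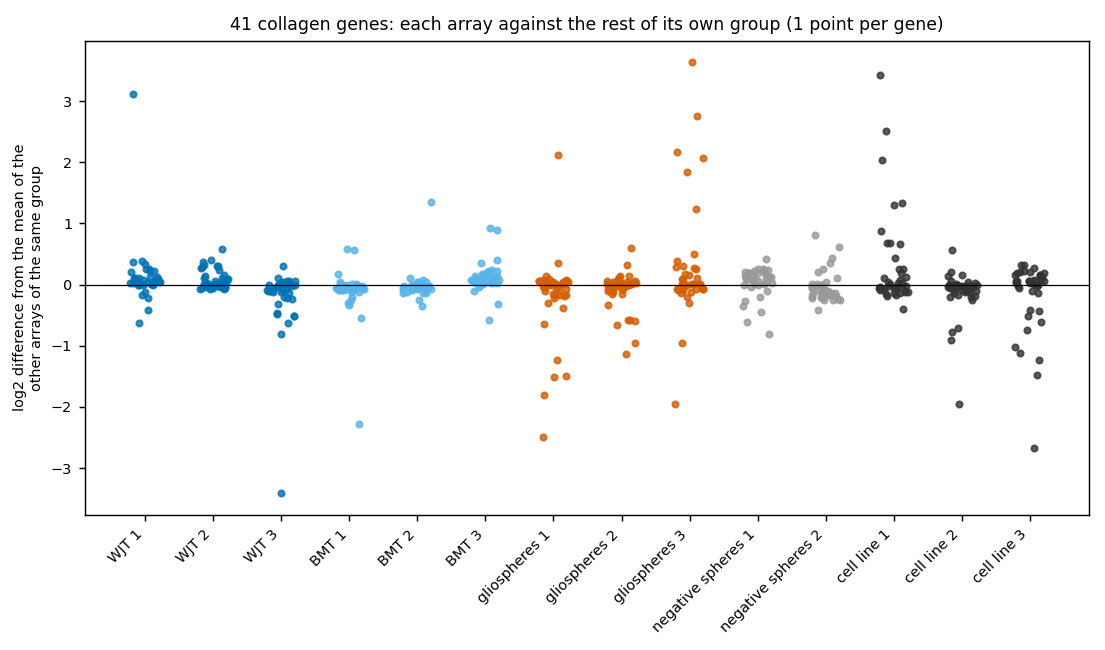
Deviation of each array from the mean of the other arrays of its own group (y axis, log2 units), 1 point per collagen gene, arrays along the x axis. Gliospheres replicate 3 and cell line replicate 1 hold points up to 3.63 and 3.42, both COL1A2, and the WJT and BMT points that exceed 1 are COL10A1.

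Without gliospheres replicate 3, the treated groups stood farther from gliospheres for these genes. The WJT difference was 3.30 for COL1A2 (limma adjusted p = 0.292), 2.92 for COL6A3 (0.353), 1.75 for COL6A1 (0.431), 1.46 for COL1A1 (0.269) and 1.32 for COL6A2 (0.376), and 7 members instead of 4 met the looser criterion, beside 0.819% of genes instead of 0.592%. The BMT difference was 2.77 for COL1A2 (limma adjusted p = 0.463), 1.68 for COL6A3 (0.766) and 1.32 for COL1A1 (0.375), and 3 members instead of 0 met the criterion, beside 0.383% of genes in both cases. COL10A1 differed by 4.32 and COL12A1 by 0.78 in WJT. In gliospheres against the control group, COL1A2 then differed by -0.05 and COL6A3 by -0.30. With cell line replicate 1 left out as well, COL1A1 passed in WJT (1.46, limma adjusted p = 0.0232) and in BMT (1.32, 0.0472), and COL1A2 passed in WJT (3.30, 0.0388), beside 0.142% of genes called in WJT and 0.0267% in BMT. These arrays were singled out for their high signals of these same genes, so the omission enlarges the differences and narrows the spread by its construction, and these calls are no independent support. Leaving out WJT replicate 2 or gliospheres replicate 1 brought the members at the looser criterion in WJT to 2, beside 0.481% and 0.824% of genes.

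Genes that make, process and bind collagens followed, with 57 of them measured in 6 lists. In WJT against gliospheres, 42 of the 57 had a difference above 0, beside 50.3% of all genes, with a median of 0.30, and none passed an adjusted p of 0.05. At the looser criterion 6 were higher and 0 lower in WJT, beside 0.592% and 0.352% of genes, and 2 and 0 in BMT, beside 0.383% and 0.458%. In BMT 39 of the 57 were above 0, beside 54.9% of genes. The cross-linking list had 5 of 5 genes above 0 in both treatments, with medians of 0.89 in WJT and 0.30 in BMT, and the folding and export list had medians of 0.52 and 0.21. Propeptide processing had medians of 0.00 and -0.14.

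P4HA2, a prolyl hydroxylase subunit needed for stable triple helices, had 8.83, 8.97 and 8.98 in WJT, 8.81, 8.80 and 8.58 in BMT, 7.54, 7.55 and 7.22 in gliospheres, 8.03 and 8.05 in negative spheres, and 9.21, 7.38 and 7.71 in the cell line. The treated arrays all lay above the gliospheres, by 1.49 in WJT (limma adjusted p = 0.279) and 1.29 in BMT (0.328). LOX, the enzyme that starts collagen cross-links, had 11.16, 12.21 and 11.77 in WJT, 11.79, 11.32 and 11.27 in BMT, 9.87, 10.41 and 9.09 in gliospheres, 12.08 and 12.87 in negative spheres, and 14.24, 11.72 and 10.75 in the cell line. Gliospheres were the lowest group for LOX, with differences of 1.92 in WJT (limma adjusted p = 0.645), 1.67 in BMT (0.545) and -2.54 for gliospheres against the control group (0.107).

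PLOD2, a lysyl hydroxylase, also had its lowest mean in gliospheres, with differences of 1.05 in WJT (limma adjusted p = 0.613), 0.99 in BMT and -1.11 for gliospheres against the control group (0.189). MRC2, a receptor that takes up collagen fragments, had 6.72, 6.69 and 6.34 in WJT, 5.98, 5.88 and 5.93 in BMT, and 5.22, 5.21 and 6.03 in gliospheres. WJT lay above both of the other groups for MRC2, by 1.10 over gliospheres (limma adjusted p = 0.262). CREB3L1, a transcription factor of collagen secretion, and DCN, a fibril-binding proteoglycan that is also among the mesenchymal markers, differed by 1.06 and 1.43 in WJT.

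**Figure D5:**
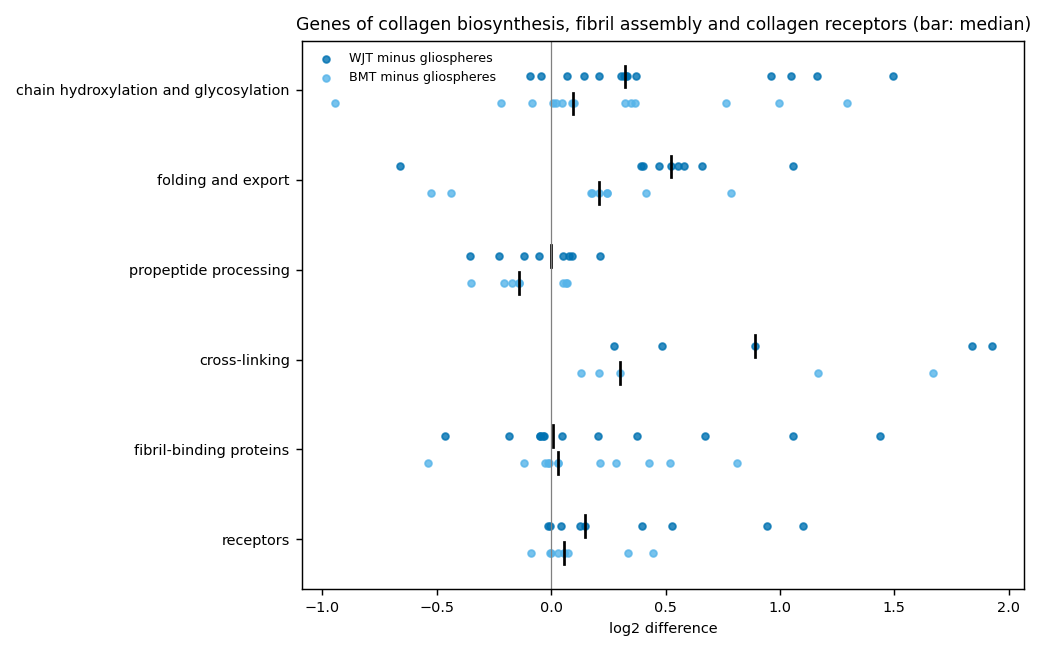
Log2 difference from gliospheres (x axis) for genes of 6 lists around collagen synthesis (y axis), WJT above BMT, 1 point per gene and a bar at the list's median. The cross-linking list has its medians at 0.89 in WJT and 0.30 in BMT, with every gene above 0.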

How the data were processed

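RNA was measured on 14 Human Transcriptome Array 2.0 arrays. The deposited values are log2 signals that the authors made with SST-RMA, a probe-level normalization, in Transcriptome Analysis Console. They were used without further scaling. No counts exist, and the number of arrays sets the precision. Of 70523 features, 67528 were transcript clusters, 23781 with 1 gene symbol in the platform annotation, 1543 with several and 42204 with none.

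Differences were tested with limma 3.58.1 in R 4.3.3 (lmFit and eBayes) over all clusters, with Benjamini-Hochberg adjustment over all of them. WJT, BMT, gliospheres and a control group of negative spheres and cell line formed 4 groups; the comparisons with negative spheres and cell line used 5. A gene was called at an adjusted p below 0.05. Beside it stands the looser criterion of the methods, whose fold wording allows more than 1 reading and was read as 2-fold. The named genes are members called or meeting the criterion in any comparison and the 2 brightest of each class; further members were named after their values were seen. At most 4 genes per list were named for synthesis and binding. Members and lists were chosen with earlier results of these data known. Deviations of same-numbered arrays correlated between -0.30 and 0.40, above 0.1 in 11 of 26 pairs. Among the comparisons made, every pair was above 0.1 only in gliospheres against the cell line (0.284, 0.317 and 0.396). The main fit of this comparison, as of the others, used no pairing, and the replicate block was run as an alternative. The labels give no source for a pairing. The fit was tested on simulated data. Alternatives were other normalizations, a filter, weights, an intensity trend, other groupings, a replicate block and leaving out arrays. Promoter windows are from a table of RefSeq windows; the 41 gene numbers were in a RefSeq gene table. Python 3.11.15, numpy 2.4.6, pandas 2.3.3 and matplotlib 3.10.9 were used.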

Additional observations from a re-analysis of the deposited data

Results flagged for a closer look

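COL9A2, a chain of a fibril-surface collagen of cartilage, had 1 array of the control group far from the others. Negative spheres replicate 1 was at 3.87, the nearest control array at 3.68 and the farthest at 3.65, and the gap was 0.873 of the group's range. Only the control group had enough arrays to be examined, 41 genes were examined and 1 was singled out, and chance singles out about 1 in 20. The signal was near the array medians.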

How the results depend on the processing

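With 3 arrays or fewer a group, and 22 of 41 members near the array medians, small differences were not detectable. For single named genes, 1165 recomputed values kept direction and side of the threshold or moved by less than the replicate spread, 7 moved, 7 became calls and 6 lost one. The COL15A1 call for gliospheres against the control group ranged over adjusted p-values of 0.0141 to 0.108, and was 0.0572 with only the groups compared, 0.0588 with array weights and 0.108 without gliospheres replicate 3 and cell line replicate 1 together, an alternative chosen after seeing the data. Causes were not tested.

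Members called in WJT against gliospheres were 1 with array weights (0.427% of genes) and 2 without both arrays (0.142%), and those at the looser criterion were 7 without both (0.926%). In BMT against gliospheres, 1 was called without both arrays (0.0267% of genes), and those higher at the criterion were 1 with quantile normalization (0.668%), 3 with array weights (0.521%) and 4 without both (0.436%). In gliospheres against the control group, 0 were called with only the groups compared (0.0757% of genes), with array weights (1.54%) and without both (0.806%). Those higher at the criterion were 1 with only the groups compared (1.1%), 1 with quantile normalization (1.2%), 0 with array weights (1.26%) and 0 without both (1.37%). In gliospheres against the cell line, median centring gave 1 called (COL15A1, 0.95, adjusted p = 0.0438; 0.521% of genes) and 1 higher at the criterion (2.08%), and leaving out both gave 3 (1.97%). In negative spheres against the cell line, leaving out both gave 2 (1.08%).

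Leaving out 1 array at a time, members called ranged from 0 to 1 in WJT against gliospheres (0% to 0.134% of genes), WJT against BMT (0% to 0.00445%) and gliospheres against the control group (0.378% to 1.7%). Those higher at the criterion ranged from 2 to 7 in WJT against gliospheres (0.481% to 0.824%), 0 to 3 in BMT against gliospheres (0.303% to 0.628%), 1 to 2 in WJT against BMT (0.0534% to 0.138%), 0 to 3 in gliospheres against the control group (1.15% to 1.89%), 0 to 2 against negative spheres (0.886% to 1.8%) and 0 to 4 against the cell line (1.18% to 2.19%), where those lower ranged from 0 to 1 (0.779% to 1.88%).

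The replicate block left 1 member higher at the criterion in gliospheres against the control group (1.35% of genes), where 2 were without it. It moved no other count of members by over 1.5 times. Over all genes, quantile normalization gave 193 higher and 40 lower at the criterion in WJT against gliospheres, where the deposited values gave 133 and 79. The same numbers were 150 and 60, against 86 and 103, in BMT against gliospheres; 224 and 375, against 322 and 223, in gliospheres against negative spheres; and 175 and 77, against 35 and 134, in negative spheres against the cell line. In gliospheres against the cell line, median centring gave 467 and 155, against 319 and 214, and in negative spheres against the cell line it gave 64 and 92.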
